A study of Mus musculus with 4 samples.

Results

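The nuclear genes of the mitochondrial respiratory chain and ATP synthase were followed in mouse aorta. Members were all probe sets annotated to a single gene whose symbol starts with Nduf, Sdh, Uqcr, Cox4 to Cox8 or Atp5, or equals Cyc1 or Cycs. This gave 164 of 22626 probe sets, for 89 genes. By symbol, 33 genes encode subunits of complex I, 4 of complex II, 9 of complex III, 16 of complex IV and 17 of complex V (ATP synthase), and 1 encodes cytochrome c. A further 8 are assembly factors (Ndufaf and Sdhaf genes) and 1 is Cox7a2l, a factor of respiratory supercomplexes. Ndufa4, first described as part of complex I and later assigned to complex IV, was counted with complex IV.

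The study compared the aorta of female mice at 6 weeks of age that all lack apolipoprotein E (apoE-/-), of strain C57BL/6 or strain C3H/HeJ, written C3H from here on. Animals were weaned at 3 weeks onto chow, and from 4 weeks they stayed on chow or ate a Western diet for 2 weeks. The 4 groups were thus C57BL/6 apoE-/- on chow, C57BL/6 apoE-/- on Western diet, C3H apoE-/- on chow and C3H apoE-/- on Western diet, with 1 array each. Hyperlipidemia is the labelled condition of the chow groups and extreme hyperlipidemia that of the Western diet groups. The sources used here do not say whether each RNA was from a single mouse or pooled, and mice with intact Apoe were not analysed here. No difference below has a replicate check, and having so few arrays limits the precision of every value. Where 4 signals are given in a row, their order is C57BL/6 chow, C57BL/6 Western, C3H chow, C3H Western.

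As background, complexes I and II take electrons from NADH and succinate, complex III passes them to cytochrome c, and complex IV hands them to oxygen. Complexes I, III and IV pump protons, and ATP synthase uses the gradient to make ATP. A few subunits of complex IV exist as tissue isoforms, such as Cox6a2, Cox7a1 and Cox8b of heart and skeletal muscle, beside the widely expressed Cox6a1, Cox7a2 and Cox8a. Cox7a1 and Cox8b are also used in brown fat. The wall of the mouse aorta is mostly smooth muscle, while the brown fat around it and the heart at its root are far richer in mitochondria.

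Transcripts of the aortic wall were measured on all 4 arrays, with signals of 23565 to 54541 for the smooth muscle actin Acta2 and 5598 to 10426 for the smooth muscle myosin Myh11. They also held brown fat transcripts, with signals of 9098 to 25040 for the uncoupling protein gene Ucp1. Signals are linear probe set intensities after quantile normalization, and a signal at or under 83.6, the 40th percentile of all values, was treated as a bound (the floor). The C3H chow array stood apart, with an actin 3'/5' signal ratio of 2.28 against 1.63 to 1.83 elsewhere, a Gapdh ratio of 1.19 that lay within the 1.03 to 1.28 of the others, and correlations of 0.868 to 0.904 with the other arrays, whose other pairs gave 0.913 to 0.931. The strain difference on chow and the diet response in C3H rest on that array, and the part of RNA quality in them was not tested.

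On chow, respiratory chain and ATP synthase genes were higher in C3H than in C57BL/6 across all 5 complexes. Of 85 member genes above the floor on both arrays, 37 were at least 1.5-fold higher in C3H, 3 were at least 1.5-fold lower and 45 lay between. Over all 6605 genes measured there, 20.8% were that much higher and 20.4% that much lower. The median log2 difference of the members was 0.49 (1.40-fold), against 0.03 for all genes, and 75 of the 85 differences were above 0. The shift was broad and shallow, since at 2-fold only 4 members were higher and 2 lower, beside 8.01% and 9.1% of all genes. In such whole-tissue RNA, more cells of a mitochondria-rich type and more RNA per cell cannot be told apart.

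Markers of other tissue moved with this difference. The brown adipocyte list, 7 of whose 10 genes have a probe set and 6 lie above the floor on every array (Zic1 does not), summed to signals of 22131, 24356, 52860 and 29831. The adipocyte list, with 9 of 10 genes above the floor on each array and Lep under it, summed to 65200, 85390, 123822 and 84270 as well. Smooth muscle markers, all 12 above the floor throughout, went the other way, with sums of 109295, 83455, 49232 and 77817. The members themselves summed to 474550.5, 559371, 666942 and 525585. Brown adipocyte, adipocyte and member sums were thus all highest on C3H chow and lowest on C57BL/6 chow, and the part of brown fat in the member differences was not tested.

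**Figure D1:**
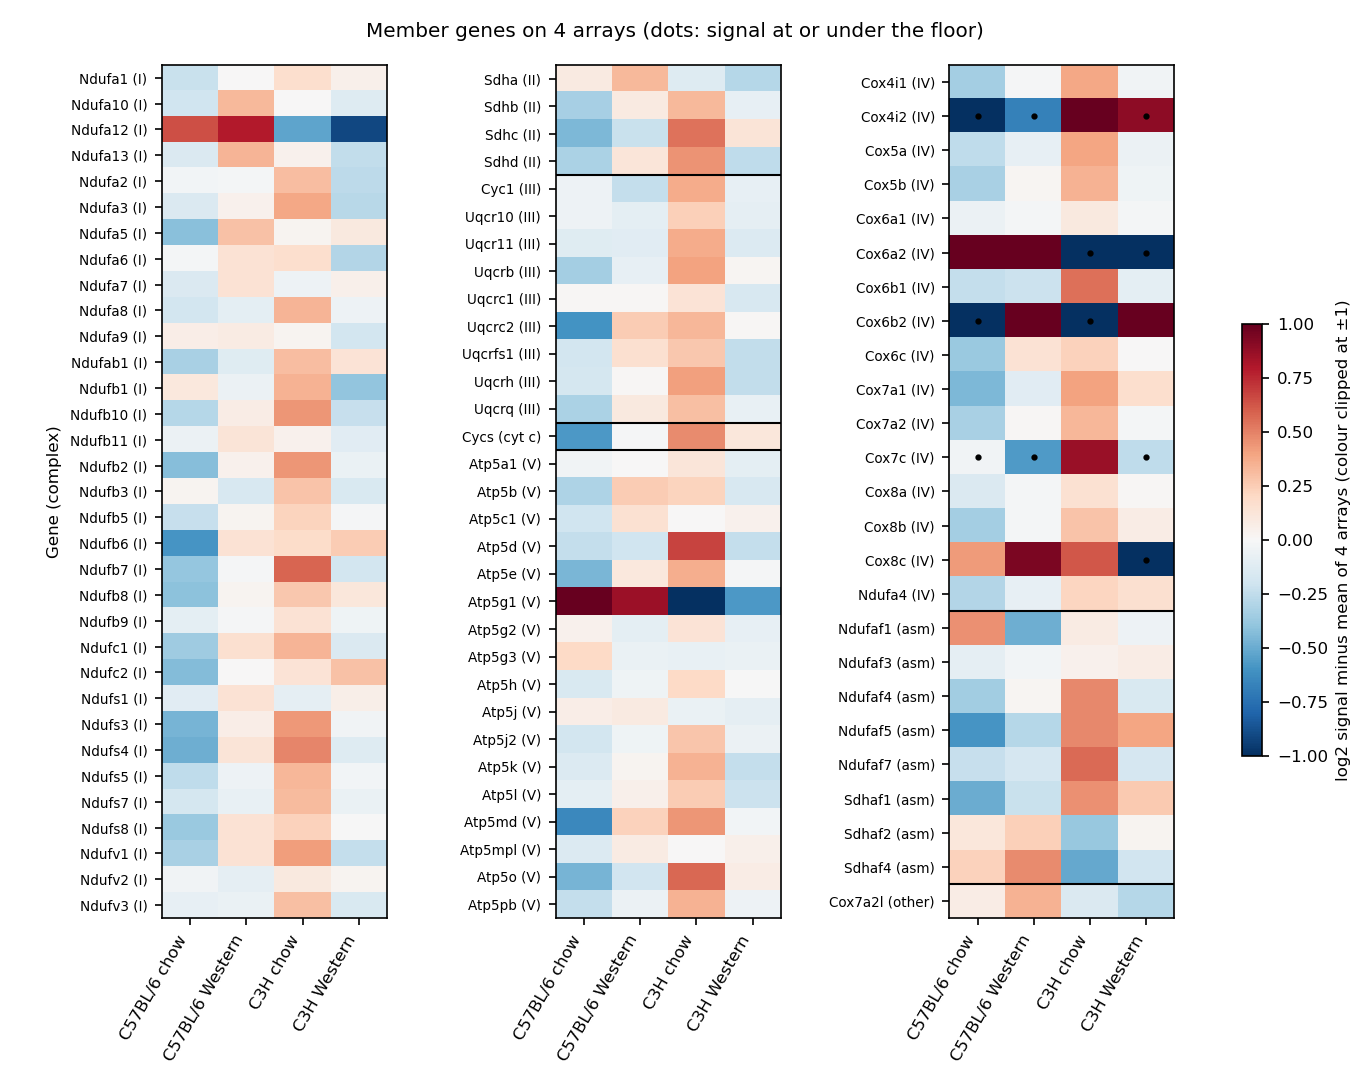
Heat map of the 89 member genes (rows, complex in brackets) on the 4 arrays (columns), coloured by log2 signal minus the gene's mean over the 4 arrays, clipped at ±1. The C3H chow column is mostly red and the C57BL/6 chow column mostly blue, while Cox6a2, Atp5g1 and Ndufa12 run the opposite way, and dots mark signals at or under the floor.

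Counted array by array, 84 member genes were above the floor on all 4 arrays. C3H chow gave the highest signal for 62 of them, against 30.9% of all 5646 genes measured on every array, and C57BL/6 chow gave the lowest for 54, against 27.4% of all genes. C57BL/6 Western was highest for 16 members (21.3% of all genes), and C57BL/6 chow (25.7%) and C3H Western (22.2%) for 3 each. The lowest signal was on C57BL/6 Western for 6 members (20.1% of all genes), on C3H chow for 4 (30.6%) and on C3H Western for 20 (22.0%). Scaled to equal medians instead, the arrays gave 43 members their highest signal on C3H chow, against 20.8% of all genes. By their representative sets, all 9 genes of complex III and all 11 measured genes of complex IV had their highest signal on C3H chow. The 11 of complex IV had their lowest on C57BL/6 chow. Cox6a2, under the floor in C3H and not counted, was highest on C57BL/6 chow (943). Some other sets differed, as a second Cox6c set (678, 751, 562 and 476) and a further Cox5b set (14368, 23182, 22906 and 21405) were highest on C57BL/6 Western. The shared order of these complexes describes 4 libraries, which every gene has in common, and is not support from independent samples.

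Complex I, the NADH dehydrogenase, had 12 of 33 genes at least 1.5-fold higher in C3H on chow and 1 lower, with a median log2 difference of 0.45. Its core subunits, which carry the flavin, the iron-sulfur clusters and the quinone site, had 6 measured genes with a median of 0.55, and its 27 accessory genes had a median of 0.45. Ndufs4, an accessory subunit whose loss models Leigh syndrome in mice, had signals of 1763, 2702, 3464 and 2255. By this set C57BL/6 chow was the lowest array and C3H chow the highest, 1.96-fold apart. Dimmer Ndufs4 sets were 1.32-fold and 1.39-fold higher in C3H on chow. The former was lowest on C57BL/6 Western and highest on C3H Western (249, 203, 328 and 368). Ndufs3, a core subunit near the quinone site, followed the order of the brightest Ndufs4 set with 3564, 5148, 6628 and 4804. It was 1.86-fold higher in C3H on chow. Ndufv1, which binds NADH, had 4928, 6803, 8223 and 5215 (1.67-fold). Ndufs1, the largest core subunit, had 3593, 4294, 3659 and 4049, so its highest array was C57BL/6 Western and its chow arrays differed by log2 0.03.

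Ndufa12, an accessory subunit of complex I, departed from the rest, with signals of 6721, 7423, 2977 and 2284. It was lower in C3H by 2.26-fold on chow and by 3.25-fold with Western diet, and both C57BL/6 arrays lay above both C3H arrays. Over its 3 sets above the floor on all arrays, the differences ranged from log2 -1.17 to 0.47 on chow and from -1.70 to 0.36 on Western diet. A further set with signals of 4423, 5509, 3623 and 2536 was also lower in C3H, by log2 values of -0.29 on chow and -1.12 on Western diet. A set with signals of 2515, 3291, 3478 and 4215 was higher in C3H on both diets, and a dim set had 44.5 and 19.7 in C57BL/6, under the floor, and 113 and 136 in C3H. The order of Ndufa12 thus depends on the probe set.

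Complex II, succinate dehydrogenase, also belongs to the tricarboxylic acid cycle, and 3 of its 4 genes were at least 1.5-fold higher in C3H on chow. Its iron-sulfur subunit gene Sdhb had signals of 13616, 18211, 21405 and 16223. The membrane anchors Sdhc (679, 797, 1355 and 1017) and Sdhd (2642, 3582, 4486 and 2768) were likewise highest on C3H chow. Sdhb, Sdhc and Sdhd were 1.57-fold, 1.99-fold and 1.70-fold higher in C3H on chow. Sdha, the flavin subunit that oxidises succinate, was highest on C57BL/6 Western instead (6909, 8167, 5939 and 5352), with a log2 difference of -0.22 on chow. Another Sdha probe set gave 3419, 4988, 4634 and 4156, or log2 0.44 on chow. A second Sdhd set gave log2 -0.77 on chow at signals of 99.6 to 169.8, so the sets of both genes point in opposite directions there.

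In complex III, 4 of 9 genes were at least 1.5-fold higher in C3H on chow and none was lower, with a median log2 difference of 0.49. The core protein gene Uqcrc2 had signals of 4829, 8691, 9172 and 7361. C57BL/6 chow stood below the other arrays, 1.90-fold under C3H chow and log2 0.85 under C57BL/6 Western. Its partner core protein Uqcrc1 hardly varied on chow (5509, 5514, 6001 and 4875, log2 0.12). The Rieske iron-sulfur protein gene Uqcrfs1 gave 6143, 7798, 8435 and 5882, and Cyc1, the cytochrome c1 that passes electrons on, gave 8243, 7240, 11005 and 8046. Cycs, the cytochrome c that carries electrons to complex IV and also acts in apoptosis, had 4459, 6575, 9197 and 7194. It was 2.06-fold higher in C3H on chow by that set, and its other sets gave log2 differences of 0.60 and 0.36.

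Complex IV, cytochrome c oxidase, had 8 of 12 measured genes at least 1.5-fold higher in C3H on chow and none lower. Their median log2 difference was 0.63. Cox6a2, not counted because its C3H signal was under the floor, was at least 11.3-fold lower in C3H. Cox4i1, the main regulatory subunit of complex IV, had signals of 11005, 13781, 18211 and 13616. Cox5a, which sits beside it, gave 6040, 6798, 9455 and 6909 and Cox6b1, which bridges the dimer, gave 28554, 29004, 49265 and 31398. For these genes C3H chow was highest and the other arrays lay closer together, and the differences on chow were 1.65-fold, 1.57-fold and 1.73-fold. A second Cox6b1 set differed less (9734, 10448, 11662 and 9920, 1.20-fold), while further Cox5a sets gave 2.05-fold and 2.07-fold. The other measured genes of complex IV ranged down to Cox6a1 (23565, 24127, 26196 and 24127), with log2 0.15 on chow.

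The tissue isoforms of complex IV split. Cox6a2, the heart and skeletal muscle form of subunit 6a, had signals of 943 and 675.5 in C57BL/6 (chow, then Western) but 24.1 and 51.4 in C3H. Both C3H signals were under the floor, so the bounds are at least 11.3-fold lower in C3H than in C57BL/6 on chow and 8.08-fold with Western diet. Cox7a1, the muscle and brown fat form of subunit 7a, had 2427, 3065, 4380 and 3720, and Cox8b, the corresponding form of subunit 8, had 18838, 23565, 29004 and 25040. These were higher by log2 0.85 and 0.62 in C3H on chow, like the widely expressed Cox7a2 (11927, 15019, 18838 and 14752, 1.58-fold) and unlike Cox6a2. Cox8a, the widely expressed form of subunit 8, gave 5185, 5646, 6363 and 5774, or log2 0.30 on chow. On Western diet Cox7a1 was higher in C3H by log2 0.28 and Cox8b by 0.09.

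As a sum, the heart muscle markers followed the order of Cox6a2. The 15 genes of that list summed to 22247 on C57BL/6 chow and 16799 on C57BL/6 Western, against 1329 on C3H chow and 1116 on C3H Western. On C57BL/6 chow 13 of the 15 were above the floor (not Myh7 and Myl2) and on C57BL/6 Western 14 were (not Myh7), while on each C3H array 5 were, with the atrial Myl7 and Myl4 and the cardiac troponins Tnnt2 and Tnni3 under the floor on both. Myh7 ran the other way, with 35.3 and 81.0 in C57BL/6 (chow, then Western) and 163 and 149 in C3H. The 13 skeletal muscle markers did not follow the order of Cox6a2, with sums of 2291, 1026, 1339 and 1364. Ckmt2, the mitochondrial creatine kinase of heart and skeletal muscle, had signals of 551 and 558 in C57BL/6 and of 18.01 and 7.68 in C3H. Whether heart tissue on the C57BL/6 arrays accounts for the Cox6a2 difference was not tested.

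**Figure D2:**
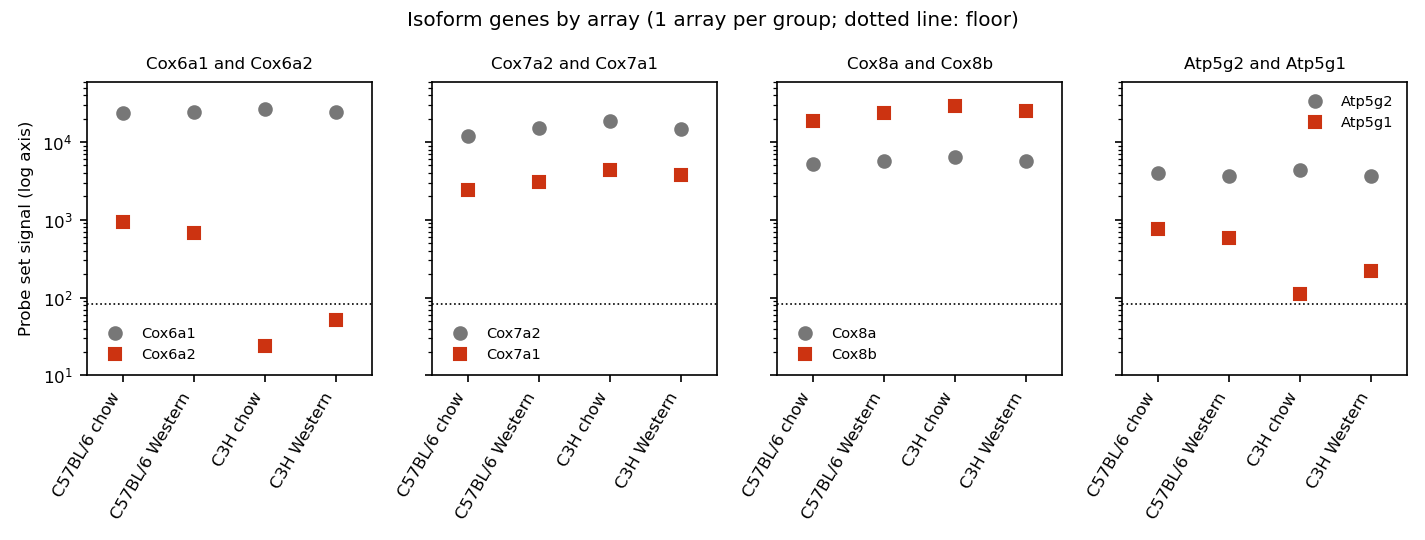
Probe set signals (log axis) of isoform genes on the 4 arrays, with the widely expressed gene as circles and the tissue isoform or Atp5g1 as squares, and the floor of 83.6 as a dotted line. Cox6a2 is at 943 and 675.5 in C57BL/6 and under the floor in C3H, while Cox7a1 and Cox8b are highest on C3H chow, and levels should be compared within a gene only.

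The remaining isoforms lay near the floor. Cox4i2, the form of subunit 4 known from lung and from low oxygen, exceeded it on C3H chow only (10.6, 23.8, 116 and 70.7). Cox6b2, a form best known from testis, had 20.9 on C57BL/6 chow and 19.8 on C3H chow but 163 and 273 on the Western arrays, so it was at least 1.95-fold and 3.27-fold higher with Western diet in C57BL/6 and C3H. Cox8c, another testis form, had 153, 219, 176 and 28.7. Cox7c, a subunit of complex IV with no tissue form named here, had sets with signals of 146.7 or less on every array, and by its representative set only C3H chow (129.5) was above the floor. These genes, with Cox6a2, are the 5 of 89 that did not exceed the floor on all 4 arrays.

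ATP synthase was less uniform, with 5 of 17 genes at least 1.5-fold higher in C3H on chow, 1 lower and a median log2 difference of 0.35. The catalytic head had 5 measured genes with a median of 0.53. Its catalytic beta subunit gene Atp5b had signals of 9423, 13870, 13577 and 10426, and its alpha subunit gene Atp5a1 had 10084, 10386, 11247 and 9673. Atp5b thus had a pair of higher arrays, 1 in each strain, while Atp5a1 varied little. The small head subunit Atp5d, which couples to the rotor, had 9158, 9423, 17245 and 9142, with C3H chow far above the rest. Atp5o, the stalk protein that holds the head (3659, 4407, 7518 and 5319), and Atp5md, a small membrane subunit (1121, 2054, 2375 and 1716), were 2.05-fold and 2.12-fold higher in C3H on chow. A dimmer Atp5o set gave 359, 353, 434 and 497, or 1.21-fold on chow, and was highest on C3H Western.

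The c ring, the rotor that turns with proton flow, went its own way. Atp5g1, Atp5g2 and Atp5g3 encode the same mature protein, and none of these genes was 1.5-fold higher in C3H on either diet. Atp5g2 (4046, 3669, 4326 and 3709) and Atp5g3 (5873, 4889, 4868 and 4889) varied little. Atp5g1 had signals of 773, 586, 112 and 218. Both C57BL/6 arrays were above both C3H arrays, and the strain gap of Atp5g1 was 6.92-fold on chow and 2.69-fold with Western diet. It has 1 probe set, so no other set bears on this difference.

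Assembly factors, which build complexes I and II without staying in them, were mixed, with 4 of 8 at least 1.5-fold higher in C3H on chow and 1 lower. Ndufaf5, which modifies a complex I subunit, had signals of 133, 164, 279.5 and 262, and was higher in C3H by 2.10-fold on chow and by 1.60-fold with Western diet. Sdhaf1, needed for the iron-sulfur clusters of Sdhb, had 170, 206, 328 and 287. Both genes were higher on each C3H array than on each C57BL/6 array. Sdhaf4 ran the other way, with 538.5 and 634 in C57BL/6 and 321 and 402 in C3H, or 1.68-fold and 1.58-fold lower. Cox7a2l gave 1624, 1963, 1392 and 1267 and was 1.55-fold lower in C3H on Western diet by that set. Its other sets were 1.12-fold and 1.17-fold lower there.

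**Figure D3:**
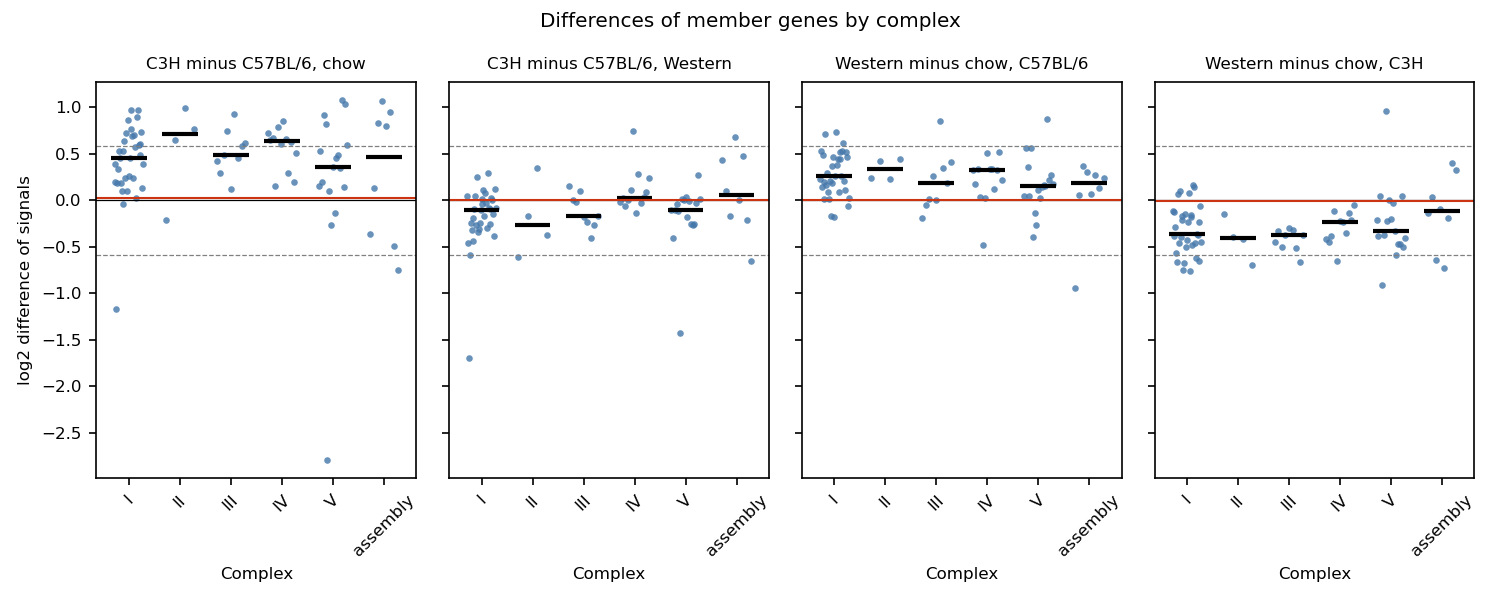
Log2 differences of member genes (points, genes above the floor on both arrays) by complex in the 4 comparisons, with the median of each complex as a black bar, the median of all genes as a red line and 1.5-fold as dashed lines. Medians of complexes I to V are 0.35 to 0.71 for strain on chow and -0.27 to 0.03 for strain on Western diet.

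On Western diet the strain difference of the members was close to 0. Of 85 measured genes, 2 were at least 1.5-fold higher in C3H and 6 lower, beside 13.3% and 13.4% of all 6806 genes, and 77 lay between. The median log2 difference was -0.08, against 0.00 for all genes, and 31 differences were above 0. By representative sets, the higher genes were Ndufaf5 and Cox6b2, and the lower ones Ndufa12, Atp5g1, Sdhaf4, Cox7a2l, Sdha and Ndufa13. Among genes above the floor on the arrays compared, Ndufaf5, Ndufa12, Atp5g1 and Sdhaf4 were past 1.5-fold on both diets, each in the same direction. At 2-fold 0 of the measured members were higher and 2 lower, beside 4.07% and 4.2% of all genes. These counts leave out Cox6a2 and Cox8c, whose C3H Western signals lay under the floor. As bounds, the Western diet signals of C3H were below those of C57BL/6 by 8.08-fold for Cox6a2 and 2.62-fold for Cox8c. The bound of Cox6a2 on chow, 11.3-fold, had the same direction.

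The median member response to Western diet was above 0 in C57BL/6 and below 0 in C3H. In C57BL/6, 5 of 86 measured genes were at least 1.5-fold higher on Western diet and 1 lower, beside 13.8% and 14.3% of all 6776 genes, with a median log2 response of 0.23 and 76 responses above 0. In C3H, 1 of 84 was at least 1.5-fold higher and 13 lower, beside 17.1% and 17.1% of all 6690 genes, with a median of -0.34 and 12 responses above 0. Counts at this threshold were thus below the share of all genes in C57BL/6, and in C3H near it for lower genes and below it for higher ones, while most members lay slightly to 1 side of 0. At 2-fold no member was called in either strain, beside 3.75% higher and 3.93% lower among all genes in C57BL/6 and 6.47% and 5.87% in C3H. Medians of cell marker lists moved as well. In C57BL/6 and C3H the median log2 responses were 0.29 and -1.71 for brown adipocyte and 0.56 and -0.44 for adipocyte markers. They were -0.42 and 0.40 for smooth muscle and -1.47 and 0.98 for fibroblast and matrix markers. In C57BL/6, 5 of 6 measured brown adipocyte genes were above 0, but Ucp1 was at log2 -0.23. Regulators of mitochondrial biogenesis had a median of -0.51 there. The part of these lists in the member responses was not tested. The comparisons share arrays, since the strain difference on chow uses the same chow arrays as these responses, so the 4 sets of values are not separate evidence.

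The 5 higher genes in C57BL/6 were Atp5md (1.83-fold), Uqcrc2 (log2 0.85), Ndufb6 (1.66-fold), Ndufa5 (1.64-fold) and Ndufs4 (1.53-fold), and the lower one was the complex I assembly factor Ndufaf1 (389, 203, 301 and 275, 1.92-fold lower with diet in C57BL/6). With equal array medians 21 genes were higher in C57BL/6 and with the deposited values 14, so that count depends on the scaling. The genes lowest relative to chow in C3H were Atp5d (1.89-fold), Ndufb7 (1.70-fold), Ndufb1 (1.68-fold), Ndufaf7 (1.66-fold) and Sdhd (1.62-fold), and 5 genes were lower there with equal medians. Of the 84 members above the floor on both C3H arrays, Atp5g1 alone was at least 1.5-fold higher with Western diet (1.95-fold), from its low chow signal of 112, while Cox6b2, under the floor on chow, has the bound given above.

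Over the 84 genes measured on all arrays, 65 had a response above 0 in C57BL/6 and below 0 in C3H (77.4%, against 27.7% of all genes), and 2 had the reverse. The C3H response minus the C57BL/6 response had a median of -0.58, against -0.01 for all genes. No test of it was run, as no residual would be left. It was most negative for Atp5md (-1.34), Ndufs4 (-1.24) and Uqcrc2 (-1.17), and of the 84 genes Atp5g1 alone was above 1 (1.36). Other probe sets of Ndufs4 and Sdhd above the floor on all arrays gave differences of 0.46 and 0.60, opposite in sign to their representative sets.

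**Figure D4:**
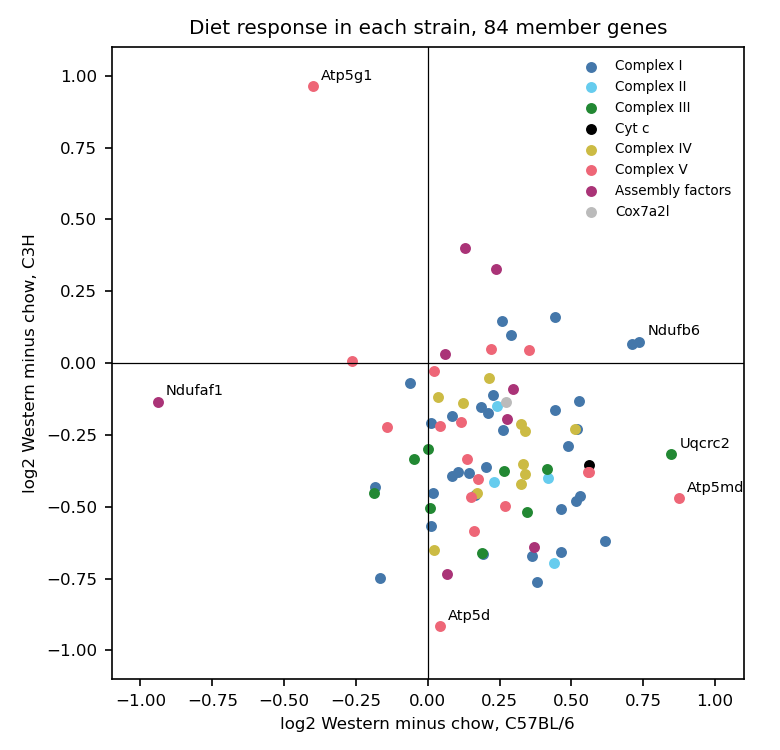
Western diet response (log2) in C57BL/6, x axis, against C3H, y axis, for the 84 member genes above the floor on all arrays, coloured by complex. Most points, 65 of 84, lie in the lower right quadrant, and Atp5g1 lies alone in the upper left apart from Atp5g3, which is near 0 in C3H.

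In an additive limma fit over all 4 arrays with terms for strain and diet, 1 of 155 member probe sets tested passed an adjusted p of 0.05 for strain, beside 0.382% of all 14915. This was Cox6a2, with a fitted log2 difference of -4.50 and adjusted p = 0.00247 in limma, where the C3H signals under the floor entered as measured values. Atp5g1 (log2 -2.11, limma adjusted p = 0.0657) and Ndufa12 (log2 -1.44, limma adjusted p = 0.0916) did not pass. The only error of that fit is the unreplicated interaction, and without a mean trend in the variance Cox6a2 did not pass either (limma adjusted p = 0.63). At an unadjusted p under 0.05 there were 9 of 155 member sets for strain, 6 of them higher in C3H, beside 873 of all 14915 sets (5.85%), a share like that of the members. For diet limma called 0 of 155 member sets and 0 of all sets (0.0%), with 1 member (Cox6b2) at an unadjusted p under 0.05 beside 2.46% of all sets. Limma without a mean trend also called 0 for diet, with 1 such member beside 4.22% of all sets.

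Agreement between probe sets of the same gene gives a sense of the error of a single set. Of 41 member genes with several sets above the floor on both chow arrays, 37 had all strain differences on chow on the same side of 0, and the pooled SD between sets of a gene was log2 0.37, against 0.62 over all genes. On Western diet 24 of 43 genes kept 1 sign, at a pooled SD of 0.33. For diet 29 of 42 did in C57BL/6 and 31 of 43 in C3H, at pooled SDs of 0.27 and 0.32. Besides Ndufa12 and Sdhd, sets disagreed by over log2 1 for accessory subunit Ndufb5 (0.45 to 1.84, strain on chow), for Ndufs4 (-0.26 to 0.86, strain on Western diet) and for the iron-sulfur subunit Ndufs8 (-1.22 to -0.03 there, and 0.32 to 1.46 for diet in C57BL/6). They also did for the complex II assembly factor Sdhaf2 (-0.94 to 0.40) and for Sdhd (-0.70 to 0.55) for diet in C3H. Sets of a gene share the same array and RNA, so their agreement covers probe error only.

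Other genes of mitochondrial and energy metabolism differed in extent. The counts below stand beside 20.8% higher and 20.4% lower among all 6605 genes measured on chow, whose median was log2 0.03. In the tricarboxylic acid cycle, which supplies NADH and succinate, 6 of 12 genes were at least 1.5-fold higher in C3H on chow and 1 lower, with a median log2 difference of 0.56. The mitochondrial ribosome, which translates the mitochondrially encoded subunits, had 17 of 71 genes higher and 8 lower, with a median of 0.28. Its count of higher genes was near the share of all genes. Of 7 measured regulators of mitochondrial biogenesis 3 were higher and 1 lower on chow. Among them the coactivator Ppargc1a had signals of 211, 211, 831 and 121, and Ppargc1b had 390, 650, 1568 and 544. Both stood out on C3H chow, but Tfam, which maintains mitochondrial DNA, gave 205, 168, 167 and 242, and Ppargc1a is also among the brown adipocyte markers. Of 6 measured genes for ATP and phosphate transport 0 were higher and 1 lower, the heart and muscle ADP/ATP carrier Slc25a4 (8046, 5493, 3835 and 4752). Glycolysis had 4 of 14 genes higher and 2 lower, with a median of 0.38.

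**Figure D5:**
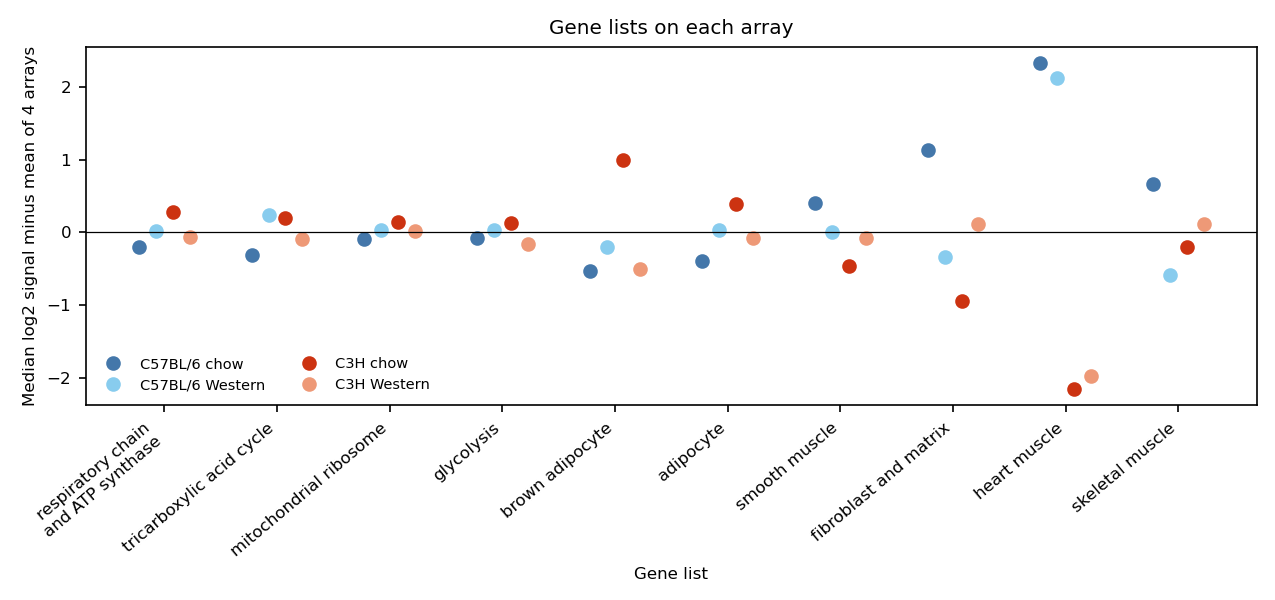
Median log2 signal of each gene list on each array, relative to the gene's mean over the 4 arrays. The respiratory chain list runs from -0.20 on C57BL/6 chow to 0.28 on C3H chow, in the same order of chow arrays as the brown adipocyte list (-0.53 and 1.0) and opposite to the smooth muscle list (0.40 and -0.45).

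Promoters of the members were read from RefSeq (GRCm38.p6, from 250 bases before to 50 after the start), which held 79 promoters for 74 of the 89 genes. Motifs of factors known to bind such promoters were searched on both strands. The palindromic NRF1 motif was found in 22.8% of member promoters, against 4.6% of all 32851 and 6.38% of those of protein-coding genes. The ETS motif of GABP (CCGGAAG) was found in 25.3%, against 8.86% and 11.6%, and the YY1 motif (AANATGGC) in 21.5%, against 6.05% and 6.37%. The estrogen-related receptor motif (TNAAGGTCA) was in 2.53%, against 1.28% and 1.03%, and the MEF2 motif in 2.53%, against 3.69% and 3.47%. A match describes letters and not binding. The median strain difference on chow was log2 0.35 for the 17 measured genes with an NRF1 match and 0.53 for the 55 without, and 0.59 for 20 genes with an ETS match and 0.47 for 52 without.

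The promoters below show members whose representative sets were higher in C3H on chow (Ndufs3, and Sdhd, whose other set was lower), one that varied little (Cox6a1), one that was lower in C3H (Atp5g1) and the tissue isoforms (Cox7a1 and Cox8b). Each gives the 250 bases before the start, 5′ to 3′ on the gene's strand, with matches to the NRF1, ETS, estrogen-related receptor, MEF2 and YY1 motifs in capitals. Sdhd lies at chr9:50603850-50604099 on the minus strand, Ndufs3 at chr2:90904722-90904971 on the minus strand and Cox6a1 at chr5:115348959-115349208 on the minus strand. Atp5g1 lies at chr11:96075632-96075881 on the minus strand, Cox7a1 at chr7:30183921-30184170 on the plus strand and Cox8b at chr7:140900447-140900696 on the minus strand.
Sdhd: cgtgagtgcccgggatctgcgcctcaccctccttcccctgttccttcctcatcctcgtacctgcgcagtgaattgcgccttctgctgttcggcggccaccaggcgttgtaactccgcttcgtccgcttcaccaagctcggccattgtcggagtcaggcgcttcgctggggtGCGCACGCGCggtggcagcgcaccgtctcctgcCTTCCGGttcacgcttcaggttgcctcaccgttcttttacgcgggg
Ndufs3: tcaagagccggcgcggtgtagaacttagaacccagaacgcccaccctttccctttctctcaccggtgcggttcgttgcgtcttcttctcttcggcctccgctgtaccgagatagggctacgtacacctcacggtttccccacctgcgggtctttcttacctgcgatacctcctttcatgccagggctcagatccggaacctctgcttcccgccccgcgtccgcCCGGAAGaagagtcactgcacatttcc
Cox6a1: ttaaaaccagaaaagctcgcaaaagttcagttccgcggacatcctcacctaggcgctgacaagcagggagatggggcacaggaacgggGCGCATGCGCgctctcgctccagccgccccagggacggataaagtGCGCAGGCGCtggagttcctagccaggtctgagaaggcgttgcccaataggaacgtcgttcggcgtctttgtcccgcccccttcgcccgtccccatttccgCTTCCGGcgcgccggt
Atp5g1: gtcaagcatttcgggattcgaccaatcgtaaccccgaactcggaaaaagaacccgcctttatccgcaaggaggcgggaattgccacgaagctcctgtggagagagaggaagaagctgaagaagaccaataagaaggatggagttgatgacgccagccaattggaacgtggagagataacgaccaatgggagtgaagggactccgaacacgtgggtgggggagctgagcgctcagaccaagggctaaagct
Cox7a1: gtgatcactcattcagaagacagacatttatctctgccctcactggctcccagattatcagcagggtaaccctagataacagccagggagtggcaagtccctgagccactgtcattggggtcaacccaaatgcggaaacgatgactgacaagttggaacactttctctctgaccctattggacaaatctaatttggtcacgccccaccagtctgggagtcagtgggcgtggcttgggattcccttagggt
Cox8b: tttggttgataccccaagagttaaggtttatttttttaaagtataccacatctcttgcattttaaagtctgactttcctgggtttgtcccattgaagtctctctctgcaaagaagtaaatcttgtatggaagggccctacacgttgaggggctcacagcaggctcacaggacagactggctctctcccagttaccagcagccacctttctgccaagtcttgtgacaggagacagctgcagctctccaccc
Sdhd holds an NRF1 and an ETS match, Ndufs3 an ETS match, and Cox6a1 NRF1 matches and an ETS match although its signal hardly differed between arrays. None of these motifs is in the 250 bases shown for Atp5g1, Cox7a1 and Cox8b.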

How the data were processed

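Aortic RNA was measured on 4 one-colour Affymetrix arrays, 1 per group. Per the labels' protocols, biotinylated cRNA was made from 8 ug of Trizol-extracted RNA. The authors deposited linear intensities per probe set, whose means after trimming 2% at each end were equal (250.11 to 250.12) while medians ran from 110.3 to 128.1. The sources used here do not name the software. Log2 intensities were quantile normalized here without the control probe sets.

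The platform annotation gave gene names, and all 164 member sets matched RefSeq by Entrez identifier. Of several probe sets of a gene, the one with the highest mean on the log2 scale stands for it. Differences were counted at 1.5-fold where both arrays exceeded the floor, with no test, as each group has 1 array. The only test was limma 3.58.1 in R 4.3.3 with strain and diet terms, eBayes (mean trend on) and adjustment by Benjamini-Hochberg over the 14915 probe sets that exceeded the floor on 2 or more arrays. It was tested on simulated data with the same SD for every probe set, which cannot check the mean trend. The fit has 1 residual degree of freedom beside a prior of 17.3. Technical and biological differences between arrays cannot be told apart.

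Members and gene lists were chosen with earlier results of these data known. Any member may be named. Full values go to isoform and core genes, to up to 5 members per direction and comparison with the largest differences past 1.5-fold, and to members whose probe sets disagree by over log2 1; further examples were chosen after their values were seen. Lists not described above had median log2 strain differences on chow of 0.26 (endothelium, 5 of 6 genes measured), -0.31 (macrophage, 5 of 7), -2.00 (fibroblast and matrix, 8 of 9), 1.34 (uncoupling proteins, 2 of 2) and 0.41 (assembly factors outside the rule, 8 of 11). Alternatives were deposited values, equal medians, cyclic loess, other floors, all probe sets, a 2-fold threshold, limma without a mean trend and, chosen after seeing the data, leaving out _s_at and _x_at sets and normalizing without the C3H chow array. Other steps used Python 3.11.15, numpy 2.4.6, pandas 2.3.3 and matplotlib 3.10.9.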

Additional observations from a re-analysis of the deposited data

Results flagged for a closer look

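The members' response to Western diet had opposite signs in the strains, with a median log2 response of 0.23 in C57BL/6 and -0.34 in C3H. Each strain has 1 array per diet, and the difference was not tested. Genes whose responses, by their representative sets, in C57BL/6 and C3H differed by over log2 1 were Atp5md (0.87 and -0.47), Ndufs4 (0.62 and -0.62), Uqcrc2 (0.85 and -0.32), Ndufb7 (0.38 and -0.76), Sdhd (0.44 and -0.70), Ndufv1 (0.47 and -0.66), Ndufb10 (0.36 and -0.67) and Ndufaf4 (0.37 and -0.64). Atp5g1 went the other way (-0.40 and 0.96). Further sets above the floor on all arrays had the opposite order for Ndufs4 (-0.29 and 0.17) and Sdhd (-0.05 and 0.55). For Ndufv1, 1 further set gave 0.18 and 0.04, and another gave 0.46 and -0.57. Among all 5646 genes measured on every array, 688 had a C3H response at least log2 1 below the C57BL/6 one and 743 at least log2 1 above it, while among the 84 members 8 and 1 did.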

How the results depend on the processing

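No paired analysis was possible because each group had 1 array. Normalizing without the C3H chow array left both comparisons that do not use it within 1.5 times of their counts (2 higher and 5 lower for strain on Western diet, 5 and 1 for diet in C57BL/6). No median over the members changed sign under the alternatives run. Single gene values were recomputed for the same probe set under other scalings only, and 0 of those past 1.5-fold changed sign. That check does not cover the choice of probe set, and other sets of Sdhd and Ndufa12 had the opposite sign on chow, as given above.

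For strain on chow, 63 probe sets were higher when all sets were counted and 4 genes at 2-fold, and the median was 0.65 with deposited values. For strain on Western diet, all sets gave 4 higher and 11 lower, 2-fold gave 0 and 2, sets without _s_at or _x_at gave 3 lower, and equal array medians moved the median to -0.22. For diet in C57BL/6, 14 genes were higher with deposited values (median 0.34), 21 with equal medians (median 0.43), 14 sets with all sets, and 2-fold gave 0 higher and 0 lower. For diet in C3H, equal medians gave 2 higher and 5 lower, all sets 2 and 20, 2-fold 0 and 0, the floor at the 60th percentile 0 higher, no filter 3 higher, and sets without _s_at or _x_at 2 higher. Equal medians moved the median of all genes from -0.01 to 0.11 for diet in C3H, and changed the split of members called there from 7.14% to 28.6% higher. From 93.3% to 95.5% of members called for diet in C57BL/6 were higher with deposited values and equal medians, against 83.3%. Limma called 2 member sets for strain with equal medians (Cox6a2 and Atp5g1), 3 without a filter (with Ndufa12) and 0 without a mean trend, where Cox6a2 had a limma adjusted p of 0.63. The cause of these changes was not tested. Arrays give no depth, and signals near the floor limit Cox4i2, Cox6a2, Cox6b2, Cox7c and Cox8c.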

Other observations

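The rule leaves out 8 probe sets whose annotation names several genes, among them those of the complex I subunits Ndufb4, Ndufa11 and Ndufs6, which share sequence with near copies. Of these, 6 were above the floor on all 4 arrays, and all 6 were higher in C3H on chow, by log2 0.40 to 0.90. The set shared by Ndufs6 and Ndufs6b had signals of 1717, 2128, 2800.2 and 1667, the same order of chow arrays as most members. The set shared by Ndufa11 and Ndufa11b had 1233, 1325, 1705 and 1687, with both C3H arrays above both C57BL/6 arrays. Which of the copies gives the signal cannot be told from these sets.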
